A study of Mus musculus with 8 samples.

Results

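The mouse Cyp2c family consists of cytochromes P450 encoded side by side on chromosome 19, and 10 of its genes are described here: Cyp2c29, Cyp2c37, Cyp2c38, Cyp2c39, Cyp2c50, Cyp2c54, Cyp2c55, Cyp2c67, Cyp2c68 and Cyp2c69. They were chosen by symbol, and all 10 were among the 15210 genes listed in the deposited table, which holds 13 Cyp2c genes in all. The other 3, Cyp2c40, Cyp2c44 and Cyp2c70, are given beside them. Liver RNA of 8 female F1-TKm30 mice was measured by sequencing. These mice are on the immunodeficient NOG background and carry a cDNA of mutant clone 30 of the herpes simplex virus thymidine kinase (HSVtk) driven by the enhancer and promoter of the mouse transthyretin gene, active in hepatocytes. Control mice (n = 4) were given 0 MOCA, and treated mice (n = 4) were given 0.05% MOCA for 4 weeks; both groups carried the transgene. MOCA is 4,4'-methylenebis(2-chlorobenzenamine), an aromatic amine used to harden polyurethane. The mice were aged 17 or 21 weeks, and the labels used here do not say which mouse had which age. The label on treatment calls the mice C57BL, whereas the strain label and the study design give F1-TKm30.

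P450 enzymes of the Cyp2c family sit in the endoplasmic reticulum, where they receive electrons from the reductase Por and add oxygen to drugs, steroids, retinoids and fatty acids. Several of them turn arachidonic acid into epoxyeicosatrienoic acids, which the hydrolases Ephx2 and Ephx1 convert to diols. In liver they are made mainly by hepatocytes, and some members are known to be induced through the nuclear receptors CAR (Nr1i3) and PXR (Nr1i2), while others follow sex and growth hormone.

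Values are normalised read counts: reads scaled by the authors to library size with TMM (trimmed mean of M-values) factors, as CPM, with 1 read worth 0.0581 to 0.0648. They are given for control mice 1 to 4 and MOCA mice 1 to 4, or as mean ± SD (n = 4 mice per group). Log2 fold changes compare MOCA with control after adding a pseudocount of 1, and this scale understates changes in genes with low values. A gene was called where the limma test gave a Benjamini-Hochberg adjusted p under 0.05 over all 12008 genes tested. Libraries held 16077424 to 17101844 reads in control and 15024945 to 15970453 in MOCA mice, so each MOCA library was shallower than each control library. All 14 hepatocyte markers were listed in this liver RNA (Alb, albumin, was highest). Their summed value was 133529 to 156326 in control and 115842 to 133626 in MOCA mice, overlapping, with 14 of 14 log2 fold changes negative. Summed endothelial markers did not overlap (898 to 1017 in control and 832 to 875 in MOCA, 10 of 12 negative, Ptprb highest), nor did summed erythroid markers (253 to 444 and 475 to 529, 5 of 5 tested positive, Hba-a1 highest). Sums overlapped for Kupffer cells (366 to 454 and 381 to 516, 11 of 12 positive, Clec4f highest) and stellate cells (511 to 572 and 427 to 541, 8 of 12 negative, Reln highest). They also overlapped for bile ducts (102 to 113 and 102 to 119.9, 4 of 6 tested positive, Anxa4 highest), lymphocytes (1.30 to 1.92 and 0.955 to 2.44, 3 of 12 listed, Cd4 highest) and neutrophils (4.19 to 6.33 and 5.18 to 6.32, 7 of 10 listed, Cxcr2 highest). The part of cell makeup and depth in the results was not tested. In bulk liver, fewer cells of a type and less RNA per cell cannot be told apart.

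The members fall into groups of close copies, and this decides how far a value can be credited to 1 gene. Coding sequences at least 85% identical were placed together. Cyp2c29, Cyp2c38 and Cyp2c39 formed one group, in which Cyp2c38 and Cyp2c39 were 94.2% identical and Cyp2c29 was 89.1% identical to Cyp2c38 and 89.5% to Cyp2c39. Cyp2c37, Cyp2c50 and Cyp2c54 formed a second group with 95.1% to 96.1% identity. Cyp2c67, Cyp2c68 and Cyp2c69 grouped with Cyp2c40, which was 97.7%, 98.1% and 97.9% identical to them. Cyp2c55 stood alone, 77.4% identical to its nearest member Cyp2c29. The last 90 coding bases before the stop codon show these distances. They come from the GENCODE M21 transcripts and are printed 5′ to 3′, with capitals at the bases that differ from the first gene of each group. The first group is:
Cyp2c29: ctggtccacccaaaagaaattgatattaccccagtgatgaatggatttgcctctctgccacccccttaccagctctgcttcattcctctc
Cyp2c38: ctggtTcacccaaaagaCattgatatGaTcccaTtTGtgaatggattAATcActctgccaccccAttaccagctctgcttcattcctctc
Cyp2c39: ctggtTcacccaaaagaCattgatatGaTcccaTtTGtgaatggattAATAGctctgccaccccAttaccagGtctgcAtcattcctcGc
The second group is:
Cyp2c37: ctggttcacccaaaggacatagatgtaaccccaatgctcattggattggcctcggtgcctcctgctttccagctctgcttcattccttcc
Cyp2c50: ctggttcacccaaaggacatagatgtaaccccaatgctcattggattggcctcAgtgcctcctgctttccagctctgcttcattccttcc
Cyp2c54: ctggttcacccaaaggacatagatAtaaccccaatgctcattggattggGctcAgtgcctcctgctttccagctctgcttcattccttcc
The third group, led by Cyp2c40, is:
Cyp2c40: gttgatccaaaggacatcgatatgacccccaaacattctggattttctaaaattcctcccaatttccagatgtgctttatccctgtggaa
Cyp2c67: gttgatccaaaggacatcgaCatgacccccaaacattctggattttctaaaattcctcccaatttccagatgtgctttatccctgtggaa
Cyp2c68: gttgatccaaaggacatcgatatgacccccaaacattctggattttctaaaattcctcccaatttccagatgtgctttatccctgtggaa
Cyp2c69: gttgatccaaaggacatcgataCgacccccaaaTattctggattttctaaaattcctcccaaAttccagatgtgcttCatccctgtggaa
The member outside the groups is:
Cyp2c55: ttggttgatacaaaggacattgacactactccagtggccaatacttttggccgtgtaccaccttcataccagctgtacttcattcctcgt
Over this stretch Cyp2c38 and Cyp2c39 differed from Cyp2c29 at 12 and 16 bases. Cyp2c50 and Cyp2c54 differed from Cyp2c37 at 1 and 3 bases, and Cyp2c68 was the same as Cyp2c40 at every base, so that a read lying within it cannot be placed between the 2 genes.

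The share of each transcript that another Cyp2c gene also holds was counted in sliding windows. For Cyp2c29, 2.08% of 50-base windows occurred in another Cyp2c transcript, nearly all in the pseudogene Cyp2c53-ps, and none of its 1684 windows of 100 bases did. Windows of 50 bases were shared to 7.45% for Cyp2c38 and 11.4% for Cyp2c39, with 0 shared at 100 bases for both. In the Cyp2c37 group the shares were 25.7% to 30.7% at 50 bases and 4.70% to 9.40% at 100 bases. They were highest in the third group, with 43.3% to 54.8% of 50-base windows for Cyp2c67, Cyp2c68 and Cyp2c69 and 72.1% for Cyp2c40. How the authors' counting divided reads between copies was not given in the sources used, so single values of the latter 2 groups are less certain than that of Cyp2c29, and group sums are given beside them.

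**Figure D1:**
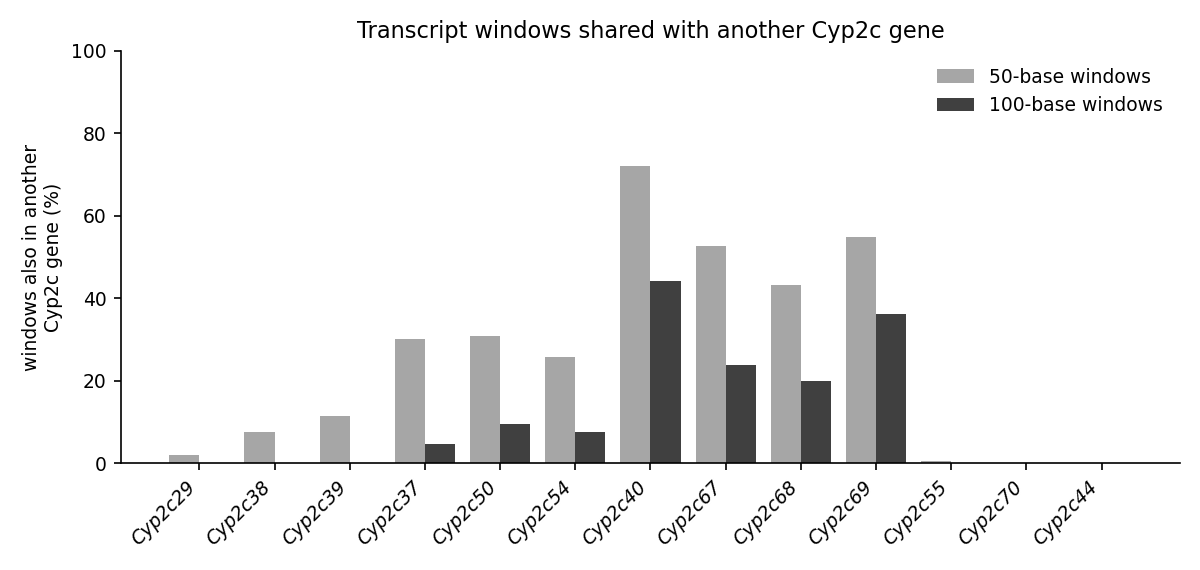
Percent of 50-base (grey) and 100-base (dark) windows of each Cyp2c transcript that also occur in the transcript of another Cyp2c gene. Cyp2c29 has 2.08% and 0, while Cyp2c40 has 72.1% and 44.1%.

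One member of 10 rose in MOCA livers, and none fell. Cyp2c29 was higher, and 9 did not pass the limma test, where 0.666% of all tested genes were called, 0.4% as higher and 0.266% as lower. edgeR called 1 member higher (0.675% of tested genes called, 0.383% higher and 0.291% lower) and DESeq2 called 2 (3.54%, 1.85% and 1.69%); neither called a member lower. Unadjusted p was under 0.05 for 3 members, all higher: Cyp2c29, Cyp2c50 and Cyp2c54 (17.5% of tested genes, 9.42% higher and 8.05% lower). In the same 3 every MOCA mouse lay above every control mouse, a separation that held for 10.5% of tested genes, 5.5% upward and 4.96% downward. Log2 fold changes were positive in 8 members and negative in 2, with a median of 0.27, or 0.20 without Cyp2c29, against 0.0051 over all tested genes.

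Cyp2c29 is known as a phenobarbital-inducible P450 that forms epoxides of arachidonic acid. Control mice had 917, 1499.5, 1611 and 1255, and MOCA mice had 3146, 3072, 3125 and 3417. Every MOCA mouse lay well above the highest control mouse, and the MOCA values were closer together (1321 ± 307 in control, 3190.1 ± 154 in MOCA). The rise was 2.42-fold between means, a log2 fold change of 1.30 (SE 0.15, 95% interval 0.96 to 1.64, limma adjusted p = 0.00534). It was 13th of 12008 tested genes by log2 fold change, a rank that favours highly expressed genes because the pseudocount shrinks changes at low values. The value rested on 15782 to 55926 reads per library, and by mean level the gene moved from place 87 to place 35 among all listed genes. Under 21 other settings Cyp2c29 was called each time, with log2 fold changes from 1.14 to 1.41 and adjusted p from 1.22e-14 to 0.03.

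The closest relatives of Cyp2c29 did not pass. Cyp2c39, which hydroxylates retinoic acid, had 938, 1072, 1131 and 1063 in control and 1093, 1092, 875 and 1037 in MOCA mice. The groups overlapped, and the log2 fold change was -0.04 (SE 0.10, 95% interval -0.25 to 0.17, limma adjusted p = 0.871). Its sign turned with equal column sums (0.014) and without MOCA mouse 3 (0.034), the lowest of the 8. Cyp2c38, an arachidonic acid epoxygenase, had 369, 478, 543 and 458 in control and 409, 495, 378 and 427 in MOCA mice. These ranges overlapped too (log2 fold change -0.11, SE 0.12, 95% interval -0.37 to 0.15, limma adjusted p = 0.686). Summed over both genes the level was 1513 ± 153 in control and 1451 ± 142 in MOCA livers. Both intervals end below the 0.96 at which that of Cyp2c29 begins. Cyp2c38 lies on the minus strand inside the RefSeq span of the plus-strand Cyp2c39, over 73548 bases. In GENCODE M21 the 2 spans do not overlap (Cyp2c38 ends at 39463075 and Cyp2c39 begins at 39510862). The libraries were directional, but whether the counting used the strand is not stated. Any intronic or unspliced reads counted over the RefSeq overlap cannot be told apart for this pair.

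**Figure D2:**
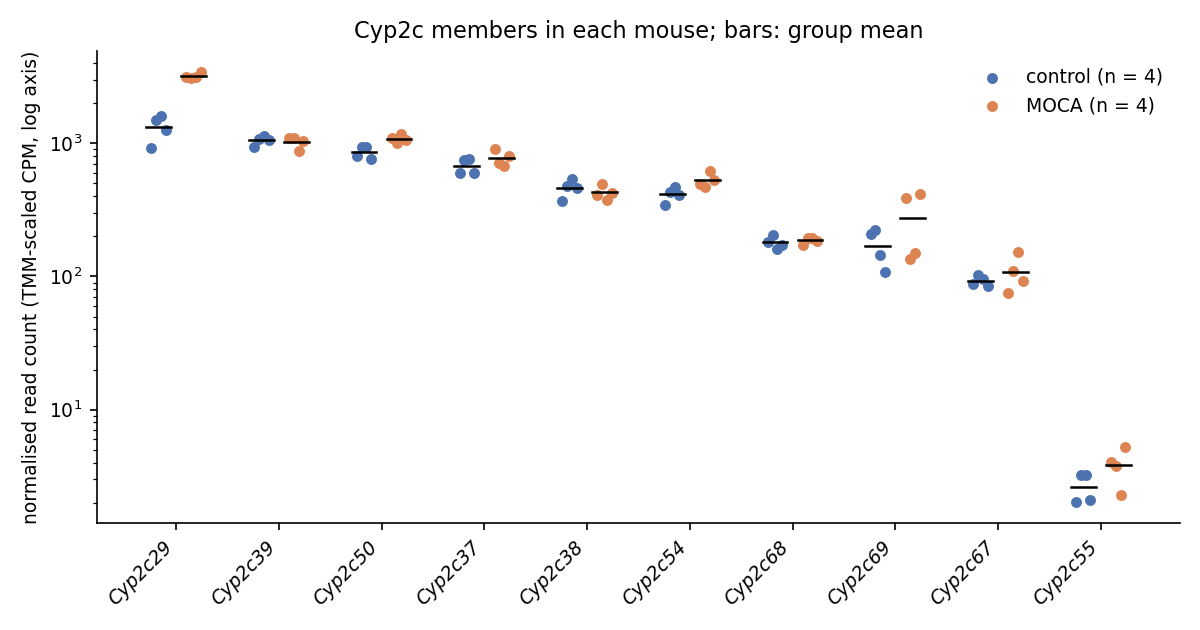
Normalised read count (TMM-scaled CPM, log axis) of each member in each of the 8 mice, with a bar at the mean of the 4 control (blue) and 4 MOCA (orange) mice. Cyp2c29 is the member with a wide gap between groups (917 to 1611 against 3072 to 3417), and Cyp2c55 lies far below the others.

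Cyp2c37, Cyp2c50 and Cyp2c54, enzymes known to form epoxides or hydroxy products of arachidonic acid, were not called by limma. Cyp2c50 had 800.1, 937, 934 and 757 in control and 1102, 1008, 1166 and 1053 in MOCA mice. The groups did not overlap, the means were 857 ± 92.5 and 1082 ± 67.6, and the log2 fold change was 0.34 (SE 0.09, 95% interval 0.14 to 0.55, limma adjusted p = 0.112). It passed with equal column sums (0.39, limma adjusted p = 0.0471) and with DESeq2 on recovered reads (0.33, adjusted p = 0.02), and over its 21 alternatives the adjusted p ran from 0.02 to 0.224.

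Cyp2c54 had 346, 433, 471 and 407 in control and 493, 472, 622 and 529 in MOCA mice. The groups were separate by a narrow margin, 471 against 472, and MOCA mouse 3 was highest (log2 fold change 0.35, SE 0.11, 95% interval 0.11 to 0.60, limma adjusted p = 0.153). Cyp2c37 had 598, 747, 762 and 599 in control and 906, 715, 678 and 797 in MOCA mice. Its groups overlapped, with MOCA mice 2 and 3 below the 2 highest controls (log2 fold change 0.20, SE 0.12, 95% interval -0.06 to 0.45, limma adjusted p = 0.413). The sum of the 3 genes was 1744 to 2167 in control and 2196 to 2502 in MOCA mice. It does not depend on how reads were divided between them if shared reads were kept, which is not known. Means of the sum were 1947 ± 225 and 2386 ± 136, 1.22-fold apart.

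Cyp2c67, Cyp2c68 and Cyp2c69 gave 3 different patterns. Cyp2c68 was nearly level, with 181, 204, 161 and 174 in control and 172, 195, 196 and 184 in MOCA mice (log2 fold change 0.06, 95% interval -0.12 to 0.24, limma adjusted p = 0.764). Cyp2c67 had 88.4, 102, 95.9 and 84.6 in control and 74.96, 109.5, 152 and 92.9 in MOCA mice. MOCA mice were both lowest and highest, the log2 fold change was 0.17 (SE 0.17, limma adjusted p = 0.655), and without MOCA mouse 3 it was -0.017.

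Cyp2c69 varied most between mice. It had 207, 223, 145 and 108 in control and 389, 136, 149 and 415 in MOCA mice, so that MOCA mice 1 and 4 were far above all others and MOCA mice 2 and 3 lay within the control range. Its log2 fold change of 0.54 had an SE of 0.36 (95% interval -0.25 to 1.34, limma adjusted p = 0.473), and was 0.28 to 0.81 when 1 mouse was left out. Cyp2c40, its near copy, had 329, 394, 242 and 249 in control and 396, 252, 298 and 462 in MOCA mice. The same MOCA mice 1 and 4 were on top, mouse 1 only just above control mouse 2 (log2 fold change 0.20, limma adjusted p = 0.638). Reads shared by these copies could give them a common pattern, which was not tested. Outside this group, MOCA mice 1 and 4 also lay above MOCA mice 2 and 3 for Cyp2c29, Cyp2c37 and Cyp2c55. Cyp3a41a, a female-predominant P450 of another family that was named after its values were seen, had 403, 704.2, 149 and 68.9 in control and 2811, 73.4, 543 and 1578 in MOCA mice. MOCA mice 1 and 4 were also the highest there, but a gene picked after its values were seen cannot support the pattern. How many other genes share this order of mice was not counted. Over Cyp2c40, Cyp2c67, Cyp2c68 and Cyp2c69 together the sum was 747 ± 144 in control and 919 ± 212 in MOCA livers, with overlapping groups.

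**Figure D3:**
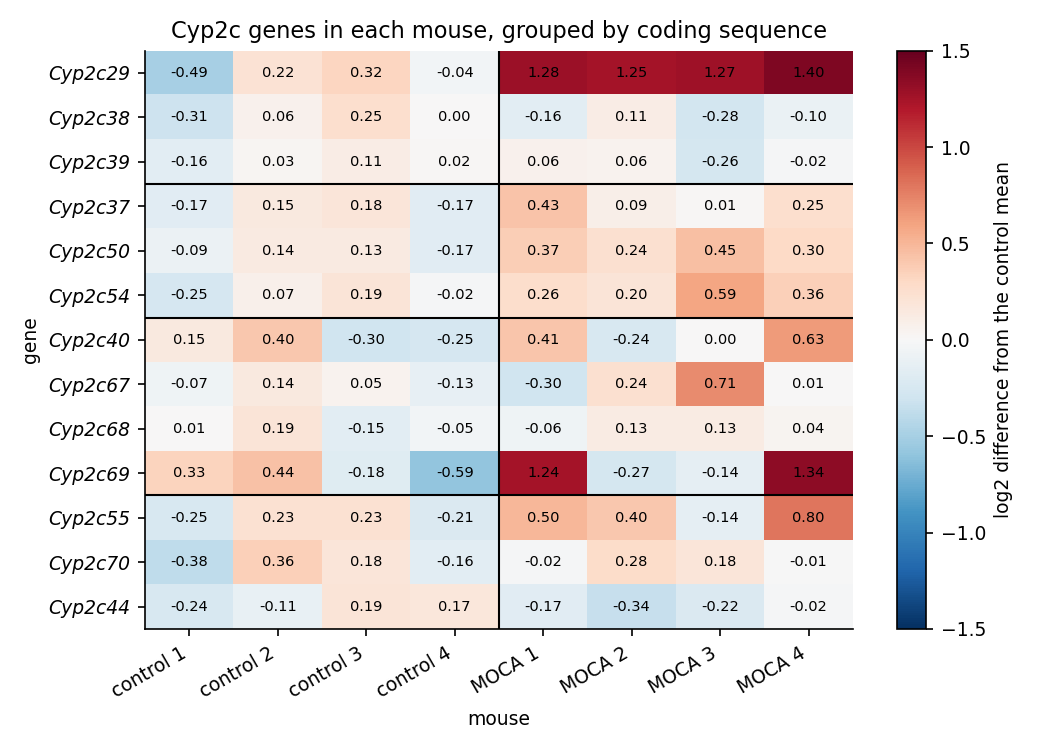
Log2 difference of each listed Cyp2c gene in each mouse from its own control mean, with genes grouped by coding sequence and the black vertical line between control and MOCA mice. Cyp2c29 is at 1.25 to 1.40 in all 4 MOCA mice, and Cyp2c69 is at 1.24 and 1.34 in MOCA mice 1 and 4 but at -0.27 and -0.14 in MOCA mice 2 and 3.

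Cyp2c55, best known from the gut and also inducible in liver, was the lowest member, with 35 to 86 reads per library. It had 2.03, 3.22, 3.21 and 2.10 in control and 4.07, 3.74, 2.27 and 5.25 in MOCA mice. MOCA mouse 3 fell within the control range and the other 3 lay above it (log2 fold change 0.39, SE 0.20, 95% interval -0.04 to 0.82, limma adjusted p = 0.332). None of the other 3 listed Cyp2c genes was called by limma, edgeR or DESeq2, and none had an unadjusted p under 0.05. Cyp2c70, which makes the muricholic acids of mouse bile, had 489.8, 817, 724 and 569 in control and 629, 771, 721 and 634 in MOCA mice, all within the control range (log2 fold change 0.11, limma adjusted p = 0.753). Without control mouse 1, its lowest value, the change was -0.02. Cyp2c44, an epoxygenase that RefSeq lists as Cyp2c23, had 149, 163, 202 and 199 in control and 157, 139, 152 and 175 in MOCA mice, again overlapping (log2 fold change -0.19, limma adjusted p = 0.396). Other Cyp2c genes were not analysed here.

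The summed value of the 10 members was 4446, 5698, 5857 and 4907 in control and 7790.0, 7301, 7343 and 7957 in MOCA mice. Every MOCA mouse lay above every control mouse. The mean went from 5227 ± 666 to 7598 ± 326, 1.45-fold, and over all 13 listed Cyp2c genes from 6359 ± 823 to 8794 ± 369. As a share of all reads in the table, which needs no TMM factor, the 10 members made up 0.513% ± 0.0616 in control and 0.774% ± 0.0436 in MOCA livers. No test was run on these sums, since the members were chosen with results of these data known.

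Most of this difference was 1 gene. Cyp2c29 was 1869.5 of the 2371 by which the sum differed between means, or 78.9%. Its share of the 10-member sum was 20.6%, 26.3%, 27.5% and 25.6% in control and 40.4%, 42.1%, 42.6% and 42.9% in MOCA mice, with no overlap. The 9 members without Cyp2c29 summed to 3529 to 4246 in control and 4217 to 4644 in MOCA mice. These ranges overlapped (3906 ± 369 and 4408 ± 218, 1.13-fold). The shares of Cyp2c38, Cyp2c39, Cyp2c37 and Cyp2c68 were lower in all MOCA mice than in all control mice. Shares are parts of the same sum, so a larger Cyp2c29 part lowers the rest without any fall in level. The levels of these genes overlapped between groups. For Cyp2c39 the share was 18.8% to 21.7% in control and 11.9% to 15.0% in MOCA mice, while its own level overlapped between groups.

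**Figure D4:**
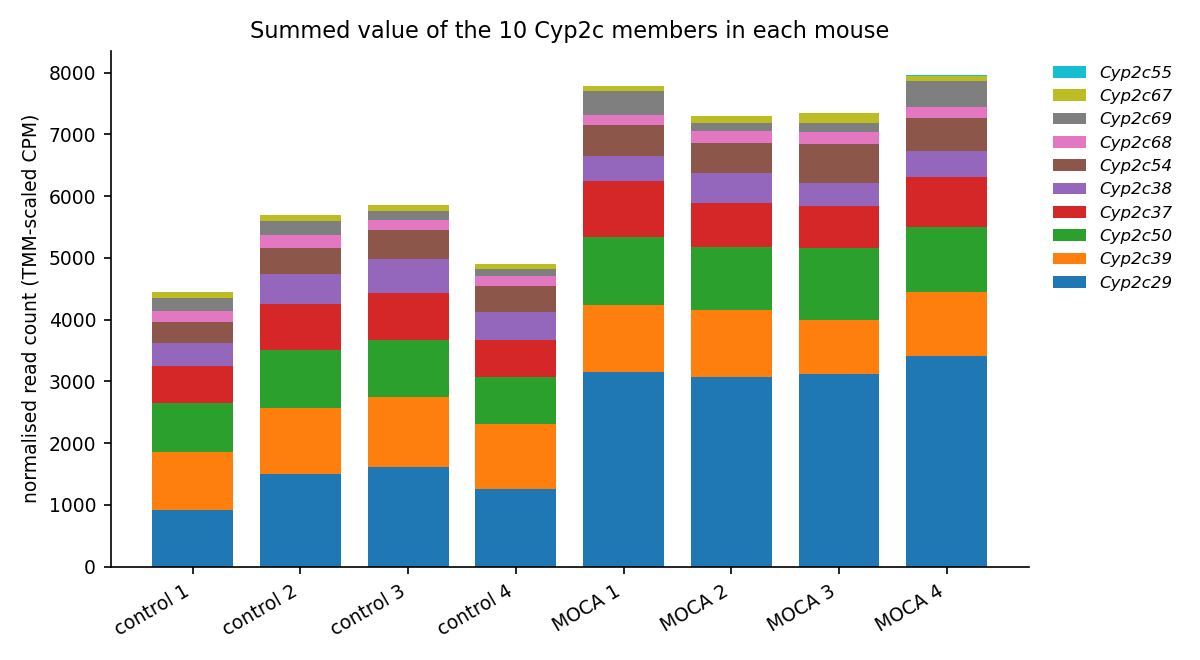
Summed normalised read count (TMM-scaled CPM) of the 10 members in each mouse, stacked by gene with Cyp2c29 (blue) at the base. The blue part is 917 to 1611 in control and 3072 to 3417 in MOCA mice, and the stack above it sums to 3529 to 4246 and 4217 to 4644.

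Whether Cyp2c29 changed more than its relatives was tested on the log2 ratio of Cyp2c29 to each other member within a mouse, in 9 pairs. Since both genes of a ratio come from 1 library, library size and TMM factor cancel except through the pseudocount of 1. The ratio was higher in all 4 MOCA mice than in every control mouse for 8 of the 9. The difference in log2 ratio was largest against Cyp2c38 (1.41, SE 0.12) and Cyp2c39 (1.34, SE 0.15), followed by Cyp2c68 (1.24, SE 0.21), Cyp2c67 (1.14, SE 0.27) and Cyp2c37 (1.11, SE 0.14). It was 0.96 (SE 0.15) against Cyp2c50, 0.95 (SE 0.13) against Cyp2c54 and 0.91 (SE 0.20) against Cyp2c55. Values of Cyp2c55 are low, so the pseudocount shrinks its own change, and with a pseudocount of 0.25 the last difference was 0.83. Each of these 8 had p = 0.0286 in a two-sided exact permutation test over the mice, the smallest that 4 against 4 allows, and 0.0321 after Benjamini-Hochberg adjustment over the 9 pairs. Against Cyp2c69 the difference was 0.76 (SE 0.52), with 2 of 4 MOCA mice above all controls (two-sided exact permutation p = 0.229, adjusted 0.229). Cyp2c29 was set against the others with its rise already known.

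To compare members with each other, values were divided by exon length in kilobases. In control livers Cyp2c29 was highest at 653 ± 152 per kb, followed by Cyp2c39 at 578 ± 44.7, and these 2 overlapped. Cyp2c50 (471 ± 50.8) and Cyp2c37 (371 ± 49.5) came next and also overlapped each other. Cyp2c54 (232 ± 29.4) and Cyp2c38 (161 ± 25.01) followed, each separate from its neighbours. Cyp2c68 and Cyp2c69 overlapped (104 ± 10.6 and 104 ± 32.5), and Cyp2c67 (53.5 ± 4.50) and Cyp2c55 (1.32 ± 0.332) were last. In MOCA livers Cyp2c29 stood alone at 1578 ± 76.2 per kb. Cyp2c50 (595 ± 37.2), Cyp2c39 (564 ± 56.5) and Cyp2c37 (424 ± 55.5) overlapped each with the next, and the order below them differed in that Cyp2c69 (166 ± 91.4) came before Cyp2c38 (149 ± 17.4) with overlapping values. Levels per kb of the close copies carry the uncertainty of how reads were divided.

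The nearest listed genes on each side of Cyp2c29 in the cluster were not called. Cyp2c genes that were not listed have no value here, and any lying between the listed ones are left out of the order. In mm10 the listed genes of the cluster run over 1180 kb, chr19:39006940-40187286. By RefSeq start their order is Cyp2c55, Cyp2c29, Cyp2c39, Cyp2c38, Cyp2c67, Cyp2c68, Cyp2c40, Cyp2c69, Cyp2c37, Cyp2c54, Cyp2c50, Cyp2c70. Cyp2c29 (plus strand, 39287044 to 39330713) was the single listed gene of the cluster called by limma. DESeq2 and equal column sums added Cyp2c50. By RefSeq start, the nearest listed genes on the 2 sides of Cyp2c29 were Cyp2c55 (log2 fold change 0.39) and Cyp2c39 (-0.04). By the GENCODE M21 spans Cyp2c38 (-0.11) lies between Cyp2c29 and Cyp2c39 and is the neighbour. Among the listed genes flanking the cluster, Pdlim1, a cytoskeletal adaptor next to Cyp2c70, was called higher (15.2 ± 1.11 and 24.9 ± 3.09, log2 fold change 0.67, limma adjusted p = 0.0131). Hells, Tbc1d12, Noc3l, Plce1, Slc35g1 and Entpd1 were not called (log2 fold changes -0.27 to 0.23). Aldh18a1 and Tctn3 were below the minimum for testing.

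**Figure D5:**
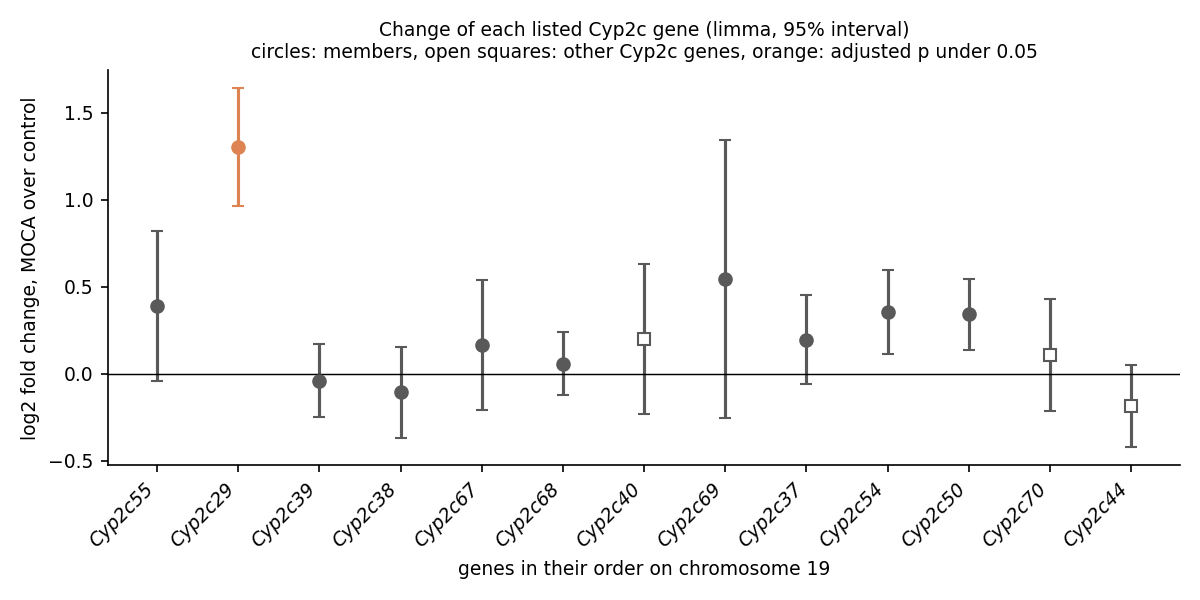
Log2 fold change, MOCA over control, of the 13 listed Cyp2c genes in their order on chromosome 19, with the limma 95% interval of each; circles are members, open squares other Cyp2c genes, and orange marks an adjusted p under 0.05. The order is by RefSeq start. Cyp2c29 is at 1.30 (0.96 to 1.64), while Cyp2c55 and Cyp2c39, drawn beside it, are at 0.39 and -0.04.

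The 250 bases before a RefSeq transcript start were compared for the group in which 1 gene rose and 2 did not. They come from RefSeq on GRCm38.p6 (mm10), and of the 13 listed Cyp2c genes 11 matched an entry. The start is that of the entry. The full RefSeq gene span begins further upstream for Cyp2c29, Cyp2c38, Cyp2c55 and Cyp2c67, so the end of their windows lies inside it, and the Cyp2c39 window shown lies wholly inside the span of that gene. Capitals mark the motifs found. For Cyp2c29 the window is chr19:39286835-39287084 on the plus strand, for Cyp2c38 chr19:39463076-39463325 on the minus strand, and for Cyp2c39 the second of its 2 windows, chr19:39510572-39510821 on the plus strand, is shown:
Cyp2c29: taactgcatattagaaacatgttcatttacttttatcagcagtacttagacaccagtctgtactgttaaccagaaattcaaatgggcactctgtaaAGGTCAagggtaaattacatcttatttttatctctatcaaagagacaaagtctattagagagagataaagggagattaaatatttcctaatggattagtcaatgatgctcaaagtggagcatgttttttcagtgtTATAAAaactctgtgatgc
Cyp2c38: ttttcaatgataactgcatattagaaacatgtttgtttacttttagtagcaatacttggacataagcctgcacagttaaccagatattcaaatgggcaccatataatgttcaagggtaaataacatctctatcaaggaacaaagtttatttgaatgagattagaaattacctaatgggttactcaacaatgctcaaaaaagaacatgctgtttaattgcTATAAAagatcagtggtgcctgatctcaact
Cyp2c39: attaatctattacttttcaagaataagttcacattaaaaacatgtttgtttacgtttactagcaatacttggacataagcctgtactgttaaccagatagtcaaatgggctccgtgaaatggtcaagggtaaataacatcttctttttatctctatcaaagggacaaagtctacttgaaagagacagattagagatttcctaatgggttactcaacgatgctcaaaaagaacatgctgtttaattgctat
Over the aligned bases Cyp2c29 was 81.1% identical to Cyp2c38 and 81.9% to Cyp2c39, and Cyp2c38 was 89.6% identical to Cyp2c39. The nuclear receptor half-site AGGTCA occurred in the Cyp2c29 window at -154, counted from the entry's start with -1 as the last base shown. It was not in the Cyp2c38 window or in the Cyp2c39 window shown, but the other Cyp2c39 window, chr19:39347096-39347345, held it at -25. Of 32851 promoter windows of this length, 14.0% held AGGTCA. The TATA element TATAAA was at -19 in Cyp2c29 and at -31 in Cyp2c38, and in 12.4% of all windows; in Cyp2c29 it lies inside the gene span, which begins at 39287044.

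The same search, on both strands, covered the other members and the remaining matched Cyp2c genes. CAAAGTCCA, a core of sites for the hepatocyte factor HNF4, was found in Cyp2c67, Cyp2c68, Cyp2c69, Cyp2c40 and Cyp2c70, and in 0.384% of all windows. The windows of the first 4 were 91.6% to 98.6% identical to each other, so they are near copies and not separate instances. The Cyp2c70 window, from a gene outside that group, held it at -64, with AGGTCA at -74 and TATAAA at -29. The windows of Cyp2c37 and Cyp2c50, 87.8% identical, held none of the motifs, that of Cyp2c55 held TATAAA alone, and that of Cyp2c67 also held TATAAA. No member's window held 2 half-sites as a direct repeat with 4 spacer bases (0.0152% of all windows) or with 1 spacer base (0.0335%), the STAT5 core TTCNNNGAA (7.02%), the C/EBP palindrome TTGCGCAA (0.164%) or the HNF1 palindrome (0.00913%). The repeats contain the half-site, and no other motifs overlap in letters. A match or its absence in this window describes the letters and says nothing about binding.

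The tested genes with profiles most like that of Cyp2c29 over the 8 mice, by the root mean square of the log2 differences from the control mean, were Phlda3 (0.301), Ccng1 (0.307), Ddias (0.346), Eda2r (0.349) and Mas1 (0.351). For the sum of the 10 members they were Slc37a1 (0.0965), Mterf1b (0.107), Impact (0.110), 2510009E07Rik (0.121) and Aox1 (0.122). Differences were taken on log2(value + 1), which shrinks changes at low values, so likeness is not an equal fold. Control and MOCA means were 1321 and 3190 for Cyp2c29, 1.08 and 5.47 for Phlda3, and 45.5 and 91.0 for Ccng1. They were 1.13 and 3.92 for Ddias, 3.81 and 12.5 for Eda2r, and 0.841 and 2.62 for Mas1. Slc37a1 (3.20 and 5.26) and Mterf1b (1.32 and 2.34) were also low.

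Genes that supply P450 enzymes with electrons and haem were mostly not called. Over all tested genes, for comparison with this and the following lists, limma called 0.4% as higher and 0.266% as lower. edgeR called 0.675% and DESeq2 3.54%, and 17.5% had a limma unadjusted p under 0.05. Of 16 such genes tested, 1 was higher and 0 were lower by limma, and the median log2 fold change was 0.07. A limma unadjusted p under 0.05 was found for 6 of the 16, and DESeq2 called 1. The call was Uros, uroporphyrinogen III synthase of the haem pathway (6.39 ± 1.35 and 11.1 ± 1.43, log2 fold change 0.72, adjusted p = 0.0461), which edgeR did not call. It was not called without a filter on low values, with eBayes without trend, or when any mouse other than control mouse 1 was left out. Por, the electron donor of all microsomal P450 enzymes, had 454, 516, 607 and 544 in control and 530.0, 402, 343 and 336 in MOCA mice. Only MOCA mouse 1 was within the control range (log2 fold change -0.41, SE 0.14, limma adjusted p = 0.174).

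Of 20 tested genes for arachidonic acid supply, oxidation and epoxide hydrolysis, limma and edgeR called 0 and DESeq2 2, with 5 at an unadjusted p under 0.05 and a median log2 fold change of -0.04. Ephx1, microsomal epoxide hydrolase, had 547, 691, 558 and 572 in control and 845, 716, 799.5 and 785 in MOCA mice. The groups did not overlap (log2 fold change 0.41, SE 0.09, limma adjusted p = 0.0661). Ephx2, soluble epoxide hydrolase, overlapped (log2 fold change -0.08, limma adjusted p = 0.724), and the fatty acid hydroxylase Cyp4a32 was 108 ± 19.6 and 68.4 ± 16.8 (limma adjusted p = 0.104). In retinoid storage and oxidation 2 of 10 tested genes were higher and 0 lower by limma, with 0 called without control mouse 1, control mouse 3 or MOCA mouse 4. They were the retinal dehydrogenase Aldh1a1 (757 ± 89.5 and 1199 ± 123, log2 fold change 0.66, adjusted p = 0.0202) and its relative Aldh1a7 (126 ± 31.7 and 221 ± 31.4, 0.83, adjusted p = 0.0366).

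Of 20 other targets of CAR and PXR, 3 were higher and 0 lower by limma (0.4% and 0.266% of all tested genes). Their median log2 fold change was 0.26. The called genes were Cyp2b10, Aldh1a1 and the glutathione S-transferase Gstm3. edgeR called 3 of the 20 and DESeq2 4, and 9 had a limma unadjusted p under 0.05 (17.5% of all tested genes). Cyp2b10, the P450 most often used to read CAR activity, had 21.4, 44.2, 46.5 and 38.6 in control and 166, 159, 106 and 137 in MOCA mice, a log2 fold change of 1.92 (SE 0.22, limma adjusted p = 0.00468). Its groups did not overlap, as for Cyp2c29, an upward separation seen in 5.5% of tested genes. Control mouse 1 was the lowest control for both, but also for Cyp2c37, Cyp2c38, Cyp2c39, Cyp2c54 and Cyp2c55. Whether Cyp2b10 and Cyp2c29 share a regulator was not tested. Cyp3a11, the usual PXR target, overlapped between groups, with a log2 fold change of 0.0021 (limma adjusted p = 0.996). Without control mouse 1, control mouse 3 or MOCA mouse 4 in turn, 1 of the 20 was called.

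None of 20 tested receptors and transcription factors of P450 genes was called by limma, edgeR or DESeq2, with 1 at an unadjusted p under 0.05 and a median log2 fold change of -0.08. The receptor genes Nr1i3 (log2 fold change -0.06, limma adjusted p = 0.847) and Nr1i2 (0.03, limma adjusted p = 0.922) overlapped, and the lowest p were those of Foxa3 and Cebpb (limma adjusted p = 0.273 and 0.364). Among genes known as higher in female liver, limma and edgeR called 0 of 21 and DESeq2 1, with 3 at an unadjusted p under 0.05 and a median of 0.20. Cyp2c40, described above, is in this list, and the median is its own log2 fold change. Cyp2a4 and Prom1 had the smallest p (limma adjusted p = 0.165 and 0.197). Of 11 genes known as higher in male liver 0 were called by all 3 tools, with 2 at an unadjusted p under 0.05 (Mup20 and Susd4) and a median of 0.10. Of 15 pericentral hepatocyte genes limma and edgeR called 0 and DESeq2 1, with 2 at an unadjusted p under 0.05 (Lgr5 and Cyp2e1) and a median of -0.05. Of 15 periportal genes 1 was lower, the immunoglobulin receptor gene Pigr (log2 fold change -0.54, limma adjusted p = 0.0344), and the median was -0.15. Pigr was not called with no minimum value for testing or with the replicate number as a block. It was also not called when any mouse other than control mouse 1 or MOCA mouse 1 was left out.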

How the data were processed

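The authors deposited 1 table of scaled signal per gene, with 15210 genes and 8 columns, 1 per mouse; 0 columns were left unused. Per the labels' protocols, directional libraries were made from rRNA-depleted liver RNA. Trimmomatic 0.38, Bowtie2, RSEM, edgeR and the build mm10 are named in the submitters' processing notes, with no role or order; the strand setting was not given in the sources used. In the deposited signal 100% of values were whole multiples of 1 read within 0.001, and each column's factor equalled the TMM factor recomputed from the recovered reads (largest difference 0). Libraries held 15024945 to 17101844 reads. The labels number the mice separately, and no 2 libraries of the same group agreed within sampling noise.

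The 12008 genes that reached 1 in 4 or more libraries were tested (3202 left out). limma 3.58.1 under R 4.3.3 was applied to log2(value + 1), using lmFit and a trended eBayes without covariates, and a Benjamini-Hochberg adjusted p under 0.05 was taken as a call. On the recovered reads edgeR 4.0.16 called 81 genes and DESeq2 1.42.0 called 425. Ratios were tested by exact permutation (scipy 1.17.1). Coding identity came from alignments with Biopython 1.88, and transcripts from GENCODE M21.

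The text names all 10 members, every other listed Cyp2c gene, from each list the called genes or else the 2 with the smallest p (from marker lists the highest), Cyp2b10, Cyp3a11, Por, Nr1i2, Nr1i3, Ephx1 and Ephx2, 5 flanking genes a side (1 is not reported here), and the 5 genes most like Cyp2c29 and the sum. Cyp3a41a was named outside this rule, after its values were seen. Members and lists were chosen with earlier results of these data known.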

Additional observations from a re-analysis of the deposited data

Results flagged for a closer look

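Within-group outliers were looked for in 64 groups of 4 mice by the gap of the highest or lowest mouse to its nearest neighbour as a part of the group's range; chance marks about 1 in 20 groups, and 2 were marked here. In MOCA mouse 2 Cyp2c38 made up 6.79% of the 10-member sum, where the other 3 MOCA mice had 5.14% to 5.36%. In MOCA mouse 3 Cyp2c54 made up 8.46% of the sum, where the others had 6.33% to 6.65%; that mouse also had the highest Cyp2c54 and Cyp2c67 and the lowest Cyp2c39 and Cyp2c38 of the MOCA mice.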

How the results depend on the processing

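Cyp2c29 kept its call under all 21 alternatives, including other pseudocounts, filters, scalings and tools. The members called higher became 2, with Cyp2c50 added, under equal column sums and under DESeq2, and stayed at 1 in the remaining alternatives; the members called lower stayed at 0. Log2 fold changes turned sign for Cyp2c39 with equal column sums (0.014) and without MOCA mouse 3 (0.034), for Cyp2c67 without MOCA mouse 3 (-0.017) and for Cyp2c70 without control mouse 1 (-0.020). Leaving out 1 mouse gave -0.093 to 0.034 for Cyp2c39, -0.017 to 0.32 for Cyp2c67 and -0.020 to 0.23 for Cyp2c70. Over all genes the 48 higher and 32 lower calls became 131 and 38 with equal column sums, 45 and 51 with upper quartile scaling, 63 and 53 with robust eBayes, 222 and 203 with DESeq2, and 10 and 3 at an adjusted p under 0.01. They ranged from 21 to 42 higher and from 8 to 35 lower when 1 mouse was left out. The share of higher calls was 60.0% as reported, 77.5% with equal column sums and 46.9% with upper quartile scaling. The cause of these shifts was not tested.

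With the replicate number as a block, 20 genes were called higher and 10 lower, and Cyp2c29 stayed called (log2 fold change 1.30, adjusted p = 0.0274). Same-numbered mice did not deviate together (r from -0.074 to 0.036, with -0.16 to 0.21 for pairs of unlike number). Such an r cannot tell whether same-numbered mice shared something that the labels do not give. Leaving out 1 mouse gave log2 folds of the 10-member sum from 0.47 to 0.60. With 3 mice against 4 an exact permutation test of a ratio cannot go below p = 0.0571, so these ratios are given without a test; the difference in log2 ratio stayed positive in all of them. Cyp2c55 was not testable with a minimum value of 5. Close copies, unknown read division and 4 mice per group limit single members other than Cyp2c29; Cyp2c55 rests on 35 to 86 reads per library.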
